A study of Drosophila melanogaster with 5 samples.

Results

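‘412’, mdg1 and blood are long terminal repeat (LTR) retrotransposons of Drosophila melanogaster, and their annotated copies were taken from the deposited annotation of transposable elements (TEs) by the name of the element each copy was aligned to. They numbered 967 of 20953 annotated TE copies, with 231 of ‘412’, 616 of mdg1 and 120 of blood. A pair of ‘412’ copies lay on a stretch of arm_U, the collection of sequence not placed on a chromosome, 15610 bp long, on which several families have very high counts. They are described apart from the 965 copies elsewhere. The element ‘412’ is named by a number and is written in quotes. Positions are those of the deposited annotation, and the sources used here do not name its genome build.

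An LTR retrotransposon has a direct repeat at each end and, between them, the gag and pol genes for its coat protein and for the enzymes that copy it back into DNA. Its full transcript starts in the first repeat and ends in the last, so a copy that has lost these ends carries the sequence without the complete unit. ‘412’, mdg1, blood and the Stalker elements belong to the mdg1 lineage of the gypsy superfamily. blood took its name from an insertion in the white gene that changes eye colour, and mdg1 from mobile dispersed genes. In fly gonads such elements are silenced by Piwi-interacting RNAs (piRNAs), and loss of Piwi raises mdg1 and blood RNA in the somatic cells of the ovary.

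The study examined the transcription that TEs produce, in polyadenylated RNA. Both ovary libraries, made from 5 µg of RNA of 20 ovaries of the line iso1a, hold the 5′ ends of capped transcripts (CAGE), with strand. One (Iso1a-454) was pyrosequenced and labelled normalization yes, and the other was sequenced by Solexa and labelled normalization no. Whole-body libraries of the lines Rev, IR6 and iso1a, without CAGE and without strand, were sequenced by Illumina HiSeq after random priming. Each pooled 10 males of less than 24 h and 10 females aged 0 to 3 days, all adult. Rev and IR6 carried normalization no and the iso1a body normalization yes, so line and label cannot be told apart in a comparison with iso1a. What sets the lines apart genetically is not in the labels. Each of the 5 libraries was a group of 1, so there was no replicate check and no p-value, and every interval covers counting error only. In bulk samples fewer cells of a type and less RNA per cell cannot be told apart.

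Gene counts per library ranged from 109980 in the pyrosequenced library to 11685814 in Rev, and the iso1a body had 4379746. Levels are given as counts scaled to the gene total (CPM). A level of 3 counts equalled 27.3 CPM in the pyrosequenced library, 1.07 CPM in Solexa and 0.257 to 0.685 CPM in the bodies. Of 10 chorion and vitelline membrane genes of ovarian follicle cells, all 10 had counts in both ovary libraries, where 9 of 10 testis and sperm genes were at 0. The same 10 follicle cell genes summed to 19793 CPM in Rev and 21130.2 CPM in IR6 but to 570.1 CPM in the iso1a body. The female germline genes found, 4 of 5, summed to 595, 378 and 1491 CPM in Rev, IR6 and the iso1a body. Among them vas stood at 93.5, 75.9 and 91.3 CPM, so not all of them followed the sum. The 3 yolk protein genes of female fat body and follicle cells summed to 62180, 61974 and 655 CPM. Male accessory gland genes found, 4 of 5, summed to 456, 516 and 1497 CPM. The 10 testis genes, none at 0 in a body library, summed to 591, 728 and 1186 CPM.

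In whole bodies, mdg1 was the most counted of the 3 families outside the stretch, then ‘412’, then blood. mdg1 had 8423 counts in Rev, 6927 in IR6 and 67313 in iso1a bodies, which were 721, 719 and 15369 CPM. For ‘412’ the counts were 2574, 2310 and 13833, or 220.3, 239.8 and 3158 CPM. For blood they were 486, 230 and 4461, or 41.6, 23.9 and 1019 CPM. The order of the families was the same in all 3 bodies, and their 95% Poisson intervals did not overlap within a library. These sums rest on different numbers of copies and are not per length.

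**Figure D1:**
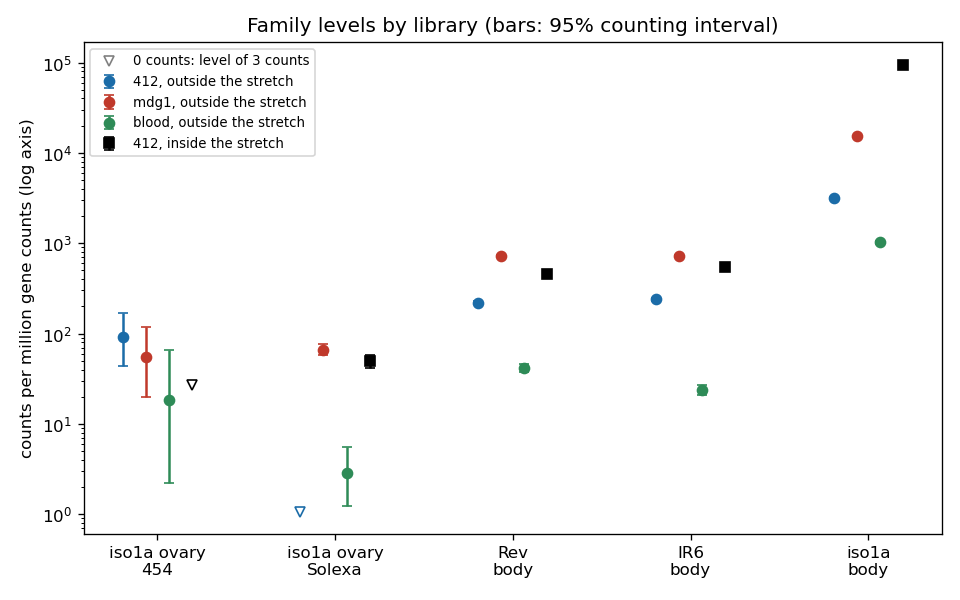
Level of each family in CPM (log axis) in the 5 libraries, with exact 95% Poisson intervals that cover counting error only, for copies outside the stretch and for the ‘412’ copies inside it. A triangle marks a library with 0 counts, drawn at the level of 3 counts. The iso1a body is highest for every family, reaching 15369 CPM for mdg1 outside the stretch and 94155 CPM for the ‘412’ copies inside it.

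The 3 families together held 6.57% of TE counts outside the stretch in Rev, 7.32% in IR6 and 16.8% in iso1a bodies. mdg1 alone held 4.82%, 5.36% and 13.2%, while ‘412’ held 1.47%, 1.79% and 2.72%. Few copies held most of these counts. Of the 965 copies, 318 had counts in Rev, 314 in IR6 and 428 in iso1a bodies, 206 had them in all 3 bodies, and 439 had none in any of the 5 libraries. For ‘412’, 50% of the family's counts lay on the top 3 copies in Rev, 4 in IR6 and 5 in iso1a bodies. For mdg1 it took 10, 10 and 15 copies, and for blood 2, 3 and 2. In each body library most copies thus had no read, and a few short fragments held most of each family's counts. These counts are reads that overlap a copy, without strand in the bodies. Whether they came from a transcript of the element or from one of the surrounding sequence was not tested.

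The most counted mdg1 fragment of Rev and IR6 lay at 7365709 to 7366142 of arm 3L and had 1080 counts in Rev, 882 in IR6 and 1258 in iso1a bodies. A fragment of 339 bp at 14034144 to 14034482 of 2R was in the top 3 of every body library, with 663, 608 and 7872 counts. A fragment of 382 bp at 9098071 to 9098452 of 3L had 694, 512 and 605 counts. In CPM their log2 ratios of Rev to IR6 were 0.01, −0.15 and 0.16, so each stood at nearly one level in those lines, while in the iso1a body the second was far above the other two. For ‘412’, a fragment of 230 bp at 14042071 to 14042300 of 2R led in Rev and IR6 with 765 and 534 counts and had 1065 in the iso1a body. In the iso1a body the first ‘412’ copy was one of 430 bp at 21390804 to 21391233 of 2L, with 91, 72 and 2491 counts. The leading blood copy in Rev and IR6 was a fragment of 299 bp at 20113845 to 20114143 of X, with 223, 68 and 635 counts. In the iso1a body it was one of 522 bp at 13301483 to 13302004 of 2L, with 13, 14 and 1284 counts. The leading copies were short fragments in each family.

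Both ‘412’ copies inside the stretch were fragments as well, on the minus strand. The copy of 482 bp at 5292451 to 5292932 had 4932 counts in Rev, 4992 in IR6, 360840 in the iso1a body, 139 in Solexa, and none among pyrosequenced reads. The copy of 339 bp at 5302732 to 5303070 had 361, 326 and 51533 counts in the bodies and 0 in both ovary libraries. Together they had 412373 counts in the iso1a body, against 13833 on the 229 other ‘412’ copies. In CPM the first was 195-fold higher in the iso1a body than in Rev and the second 380-fold. Between Rev and IR6 their log2 ratios were −0.30 (95% interval −0.35 to −0.24) and −0.13 (−0.35 to 0.09), under 2-fold.

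The fragments that carried counts came from few places on the element. Positions on the element were counted from 1 at its first aligned base, and the longest copies reached 7567 (‘412’), 7480 (mdg1) and 7410 (blood). Zones at 1000 to 2200 and at 6300 to 7200 were chosen after the values were seen, and a copy belonged to a zone when its aligned part lay inside it. For ‘412’, 102 copies in the left zone held 90.4% of the family's counts in Rev, 85.3% in IR6 and 77.9% in iso1a bodies, and 38 copies in the right zone held 8.39%, 12.5% and 18.3%. For mdg1, 397 copies in the right zone held 89.4%, 89.8% and 91.1%. For blood, 60 copies in the right zone held 80.7%, 91.7% and 95.8%, and the 3 copies in its left zone had 0 counts in all libraries. ‘412’ thus differed from the other families in which zone held most of its counts, and also in which zone had more of its copies. The left zone of mdg1 had only 30 copies. Per kb of aligned copy, it stood at 4.04, 4.99 and 106 CPM in Rev, IR6 and the iso1a body. The right zone of mdg1 stood at 5.47, 5.49 and 119 CPM. For ‘412’ the left zone stood at 5.93, 6.09 and 73.3 CPM and the right at 1.69, 2.73 and 52.8 CPM.

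The left zone held 135 copies of all 3 families and 4.30% of their aligned length, and the right zone 495 copies and 14.5%. The other 335 copies had 81.2% of the length and 5.38% of counts in Rev, 3.86% in IR6 and 3.22% in iso1a bodies. Per kb of aligned copy, the left zone stood at 5.46, 5.77 and 78.7 CPM, the right zone at 4.81, 4.82 and 107.5 CPM, and the rest at 0.0654, 0.0469 and 0.778 CPM. The ‘412’ copies inside the stretch were aligned to 6543 to 7006 and to 1499 to 1844 of the element, 1 in each zone. Being in a zone did not mean having counts: in the iso1a body, 63 of 140 such ‘412’ copies, 232 of 427 of mdg1 and 23 of 63 of blood had any. Copies in the zones lay more often on the assembled euchromatic arms (543 copies, 86.2%) than the others did (133 of 335, 39.7%). The sequence of the zones was not analysed here.

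**Figure D2:**
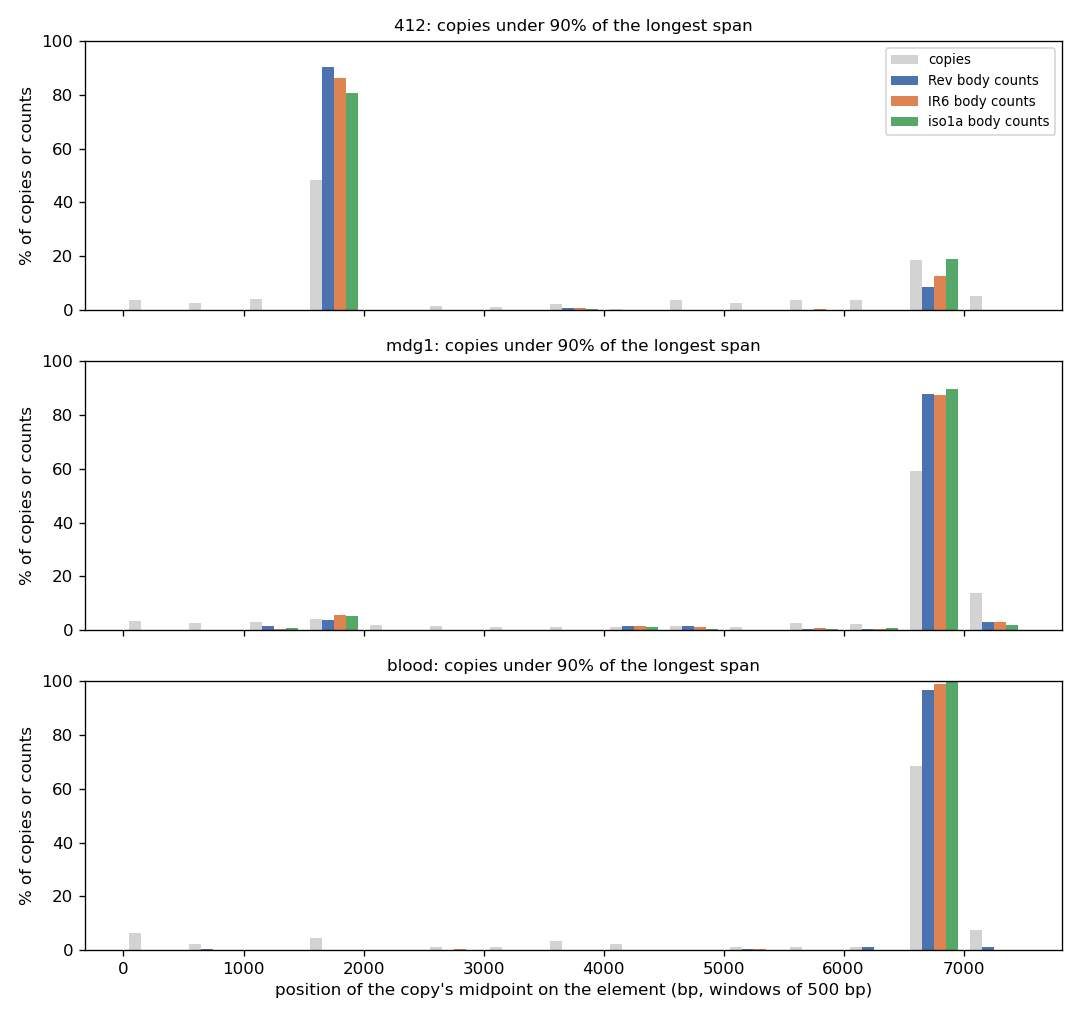
Percent of the counts of each family's copies under 90% span by position on the element, in 500 bp windows set by the middle of the aligned part, for Rev, IR6 and the iso1a body (coloured bars), beside the percent of copies in the window (grey bars), with the ‘412’ copies of the stretch left out. Counts of ‘412’ lie mostly in the window from 1500 to 2000, and those of mdg1 and blood mostly in the window from 6500 to 7000, in each case a larger share than that of the copies.

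Length showed the same concentration. Span is the part of the element a copy was aligned to, as a percent of the longest in its family. The 768 copies under 10% span made up 79.6% of copies and 23.7% of aligned length, and held 91.4% of member counts in Rev (95% Clopper-Pearson interval 90.9 to 91.9), 93.7% in IR6 and 94.7% in iso1a bodies. The 81 copies of at least 90% span made up 57.2% of the length and held 1.69%, 0.644% and 0.996%. How reads matching several copies were treated is not stated, and its part in these shares was not tested. Among copies of the Stalker elements, of which 1159 were annotated, those under 10% span held 98.6%, 98.3% and 96.9%. Among all other TE copies outside the stretch the shares were 72.6%, 76.7% and 84.5%. The 122 copies within 600 bp of either end of the element held 2.13%, 1.99% and 1.49% of member counts. This class was set by distance alone, since the bounds of the terminal repeats were not given, and it overlaps the right zone. By place in the genome, 98.9%, 98.7% and 99.4% of member counts fell on the euchromatic arms, which carried 70.1% of the copies. For Stalker copies the shares were 95.4%, 94.9% and 96.4%, with 62.6% of copies. For all other TE copies they were 92.7%, 94.1% and 92.9%, with 48.9% of copies, so this concentration is general. The 186 member copies on arm_U outside the stretch had 30, 18 and 12 counts.

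Rev and IR6 shared tissue, platform and normalization label, and were compared as lines, with 1 library of each. Markers of other tissues also differed between them: 5 head and eye genes summed to 1617 CPM in Rev and 3145 CPM in IR6, and the female germline genes found, 4 of 5, to 595 and 378 CPM. Their part in the differences below was not tested. As families, none of the 3 passed 2-fold, where 8.41% of 107 families with at least 50 counts did (7.48% higher in Rev, 0.935% lower). The log2 ratio of Rev to IR6 was −0.12 for ‘412’ (−0.20 to −0.04), 0.00 for mdg1 (−0.04 to 0.05) and 0.80 for blood (0.57 to 1.03). With other scalings the ratio of mdg1 was −0.08, −0.11 or −0.02, so its sign depends on the scaling. Blood was 1.74-fold higher in Rev, and 1 fragment on X, the leading copy named above, gave 223 of its 486 counts there against 68 of 230 in IR6.

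Single copies were compared where both libraries together had at least 50 counts, which 77 of the 965 copies reached, 18 of ‘412’, 57 of mdg1 and 2 of blood. Past 2-fold, 5 of them were higher in Rev and 5 lower, while 11.8% of 752 TE copies tested were higher and 4.26% lower (16.1% in either direction). The median log2 ratio was 0.01 over the 77 copies and 0.16 over all copies tested. Stalker copies had 3 higher and 5 lower of 47. The members' share past 2-fold, 10 of 77, was near the background.

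**Figure D3:**
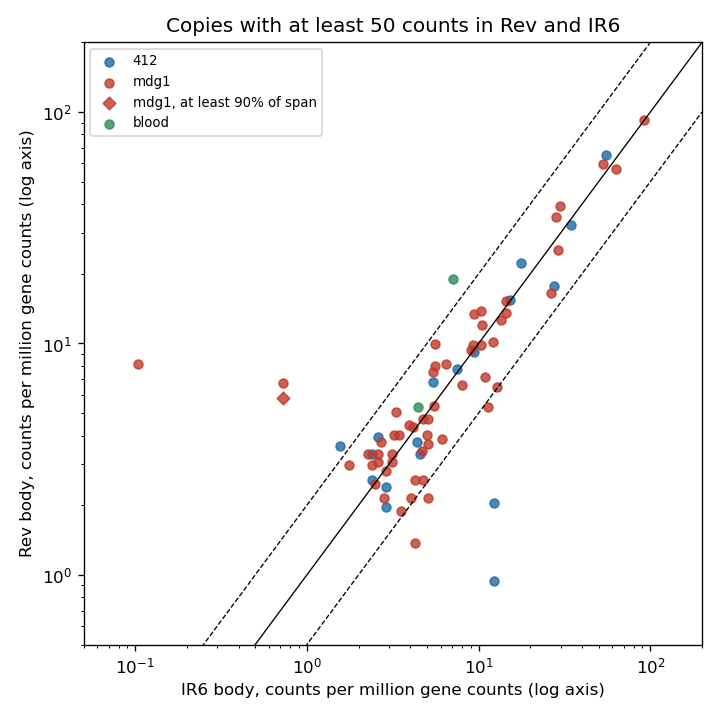
Levels of the 77 copies with at least 50 counts in Rev and IR6 together, with IR6 on the x axis and Rev on the y axis (both in CPM, log axes), coloured by family. The solid line marks equal levels and the dashed lines 2-fold, and 10 copies lie outside these, 5 on each side.

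The 5 copies higher in Rev held 3 of mdg1 and 1 each of ‘412’ and blood. An mdg1 fragment of 203 bp at 4115404 to 4115606 of 2R had 95 counts in Rev and 1 in IR6, and 856 in the iso1a body (log2 ratio of Rev to IR6 5.71, 3.78 to 11.61). An mdg1 fragment of 465 bp at 18392559 to 18393023 of 2L had 79 and 7, and 250 in the iso1a body (3.13, 2.11 to 4.58). The third was a nearly complete mdg1 copy of 7365 bp at 5663885 to 5671249 of 3R, with 68 and 7, but 3 in the iso1a body (2.91, 1.88 to 4.37). The blood fragment on X had a log2 ratio of 1.43 (1.04 to 1.85), and a ‘412’ fragment at 16343531 to 16343749 of 2L had 42 and 15 counts and a ratio of 1.18 (0.33 to 2.16). For all but the nearly complete copy, the iso1a body had more counts than Rev.

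The copies lower in Rev were 2 of ‘412’ and 3 of mdg1, all fragments under 500 bp. A ‘412’ fragment at 26248830 to 26249082 of 3R had 11 counts in Rev and 118 in IR6, with 1267 in the iso1a body (−3.64, −4.74 to −2.81). Another at 2285910 to 2286120 of 2L had 24 and 118, with 230 in the iso1a body (−2.55, −3.27 to −1.93). An mdg1 fragment at 8766854 to 8767277 of X had 16 and 41, with 5932 in the iso1a body, and its ratio was −1.61 (−2.57 to −0.77). For the other mdg1 copies the counts were 25 and 49 at 14041720 of 2L, and 62 and 109 at 12130271 of 3R. The first of these had 0 counts in the iso1a body.

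Across copies with counts in either library, the rank correlation of Rev with IR6 was 0.71 over 393 copies, as a description of copies that share these 2 libraries and their depth. It was 0.80 for mdg1 (262 copies), 0.58 for ‘412’ (85) and 0.15 for blood (46). The same figure for the iso1a body was 0.48 with Rev over 494 copies and 0.51 with IR6 over 492. Many of these copies had few counts, where sampling alone spreads the ranks.

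The iso1a body was higher than both other bodies in every family. Outside the stretch, log2 ratios to Rev and to IR6 were 3.84 and 3.72 for ‘412’, 4.41 and 4.42 for mdg1, and 4.61 and 5.41 for blood, or 14.3- and 13.2-fold, 21.3- and 21.4-fold, and 24.5- and 42.6-fold. All 3 passed 2-fold against both, as did 85.2% of 115 TE families (4.35% were lower), so the direction is shared with most families. The same library had low follicle cell genes (570.1 CPM against 19793 and 21130.2) and yolk protein genes (655 CPM against 62180 and 61974). Its sum of female germline genes was higher (1491 CPM against 595 and 378), though vas among them was not above Rev (91.3 CPM against 93.5 and 75.9). Its male accessory gland genes were higher too (1497 CPM against 456 and 516). It also had another normalization label. The part of these differences in the ratios was not tested. Other scalings of the gene totals lowered the ratios by 0.42 to 0.58.

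Among single copies, 146 had at least 50 counts with Rev and the iso1a body summed and with IR6 and the iso1a body summed, and 140 of them were higher in the iso1a body and 2 lower. Over all TE copies 82.8% of 1126 were higher and 11.1% lower. Since 78 of the 146 reached the minimum only through the iso1a body, they had to be higher there and support nothing. The comparison was therefore also made over the 77 copies with at least 50 counts in Rev and IR6 together, a choice made after the values were seen. Of these, 62 were higher in the iso1a body, 8 lower and 7 within 2-fold of 1 or both lines, and the median of the smaller log2 ratio was 3.13. With the same minimum, 48.4% of 752 TE copies were higher and 37.8% lower, with a median of 0.68. The members' share was 80.5%, and Stalker copies had 41 higher and 3 lower of 47 with a median of 2.84. The share thus lay above that of all copies and close to that of the Stalker copies, with no test of the difference.

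**Figure D4:**
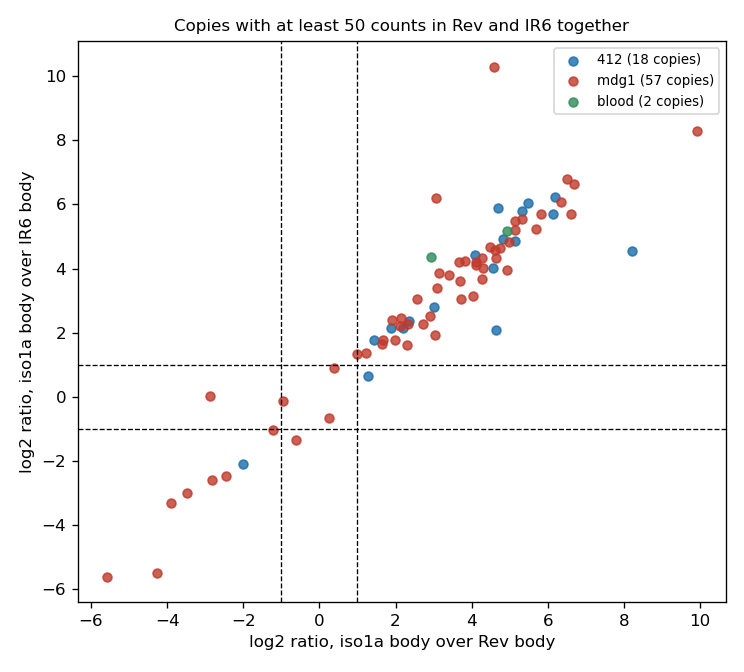
Log2 ratio of the iso1a body to Rev (x axis) and to IR6 (y axis) for the 77 copies with at least 50 counts in Rev and IR6 together, coloured by family, with dashed lines at 2-fold. The 62 copies past 2-fold against both lie in the upper right, and 8 lie in the lower left.

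By family, 16 of 18 copies of ‘412’, 44 of 57 of mdg1 and both of blood were higher. The largest ratios among all 146 copies mostly belonged to copies that reached the minimum through the iso1a body alone, so their direction was set by that minimum and their values are a description. An mdg1 fragment of 564 bp at 6407286 to 6407849 of 3R had 4 counts in Rev, 7 in IR6 and 1580 in iso1a bodies. An mdg1 fragment at 9083023 to 9083392 of X had 0, 0 and 251 counts, at least 223-fold higher than Rev. A ‘412’ fragment of 796 bp at 13843481 to 13844276 of 3R had 0 counts in Rev, 3 in IR6 and a level of 104 CPM in the iso1a body, at least 404-fold higher than Rev. The blood copies with large ratios were that at 13301483 of 2L named above, one at 4115071 to 4115439 of 2L (17, 13 and 993 counts) and one at 8930095 to 8930661 of 3L (3, 1 and 192 counts). Of the 77 copies, the mdg1 copy at 8766854 of X named above had the second highest iso1a count of its family and was 959-fold higher than in Rev.

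The 8 copies lower in the iso1a body were 7 of mdg1 and 1 of ‘412’. The ‘412’ fragment of 230 bp at 123246 to 123475 of 3R had 379 counts in Rev, 334 in IR6 and 35 in iso1a bodies. An mdg1 fragment at 16628325 to 16628570 of 3R had 63, 53 and 0 counts, at least 7.87-fold lower than Rev. The mdg1 fragments at 10510244 of 3L (59, 32 and 1) and 19191300 of X (44, 26 and 1) also had at most 1 count there. All 7 mdg1 copies lay in the right zone, as 397 of the 616 mdg1 copies do. The direction was thus not uniform over copies aligned to the same part of the element.

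Copies of at least 90% span, the ones that can hold a complete element, had few counts: 30 of ‘412’, 23 of mdg1 and 28 of blood. This group was examined after the values were seen. In Rev, IR6 and the iso1a body, the ‘412’ copies had 5, 28 and 479 counts, the mdg1 copies 108, 16 and 190, and the blood copies 81, 17 and 184. Per kb of copy, members of this class stood at 0.0291, 0.0111 and 0.342 CPM, against 3.80, 3.89 and 78.3 CPM for those under 10% span. Since the treatment of reads with several matches is unknown, low counts here cannot be read as low transcription of complete elements. No count was seen in any library on 7, 5 and 8 of these copies in the 3 families, among them the longest ‘412’ copy, at 1047496 to 1055161 of 3L, and the longest mdg1 copy, at 20615462 to 20622912 of 2R. The longest blood copy, at 347941 to 355402 of 2L, had 2, 0 and 10 counts.

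Between Rev and IR6, mdg1 and blood were higher in Rev in the sum over these copies, and ‘412’ had too few counts for a call. The log2 ratio was 2.44 for mdg1 (1.71 to 3.33) and 1.94 for blood (1.21 to 2.82), both past 2-fold higher in Rev, while 24.1% of 29 families with at least 50 counts on such copies were higher and 13.8% lower. Both rest on a few copies. Of the mdg1 counts, the copy at 5663885 of 3R had 68 in Rev and 7 in IR6, and one at 19110198 of 3L had 29 and 1. Of the blood counts in Rev, copies at 22610345 and 22548925 of 3L and at 11444508 of 3R had 31, 19 and 16. Each of these blood copies had 0 in IR6. Ratios without all of these copies were not computed. Without the mdg1 copy at 5663885 of 3R, 40 and 9 counts remained, under the minimum of 50, so the call was lost, and the ratio was 1.81 (0.81 to 3.10). Without the blood copy at 22610345 to 22617739 of 3L, with 31 counts in Rev and 0 in IR6, it was 1.25 (0.46 to 2.16). ‘412’ had 33 counts in both libraries together, under the minimum of 50, with a ratio of −2.65 (−4.49 to −1.37), and −1.86 (−3.76 to −0.44) without its most counted copy.

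In the iso1a body the nearly complete copies were higher than in Rev and IR6 in all 3 families, as were 95.8% of 48 families (4.17% were lower). The minimum of 50 counts was met with the iso1a body included, and the ‘412’ copies reached it through that library alone, with 5 and 28 counts in Rev and IR6, as did part of the 48 families, since 29 reached it in Rev and IR6 together. The direction for ‘412’ was therefore set by the minimum and supports nothing, and the share of families was partly set by it. Log2 ratios to Rev and IR6 were 7.86 and 5.21 for ‘412’, 2.23 and 4.67 for mdg1, and 2.59 and 4.54 for blood. Of ‘412’, 20 of 30 copies had counts there, and the one at 20064814 to 20072241 of 2R had 205 of the 479, with 0 in Rev and 1 in IR6. The ‘412’ copy at 22966292 to 22973848 of 3R had 0, 0 and 57. For mdg1, 18 of 23 copies had counts and no copy had more than 34. For blood, the copy at 20303216 of 2L had 1, 8 and 62 counts and the one at 21347605 of 2L 0, 2 and 29. These 2 copies were named after their values were seen. Blood copies that led in Rev, such as the one at 22610345 of 3L with 2 counts in the iso1a body, were not those that led in the iso1a body.

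**Figure D5:**
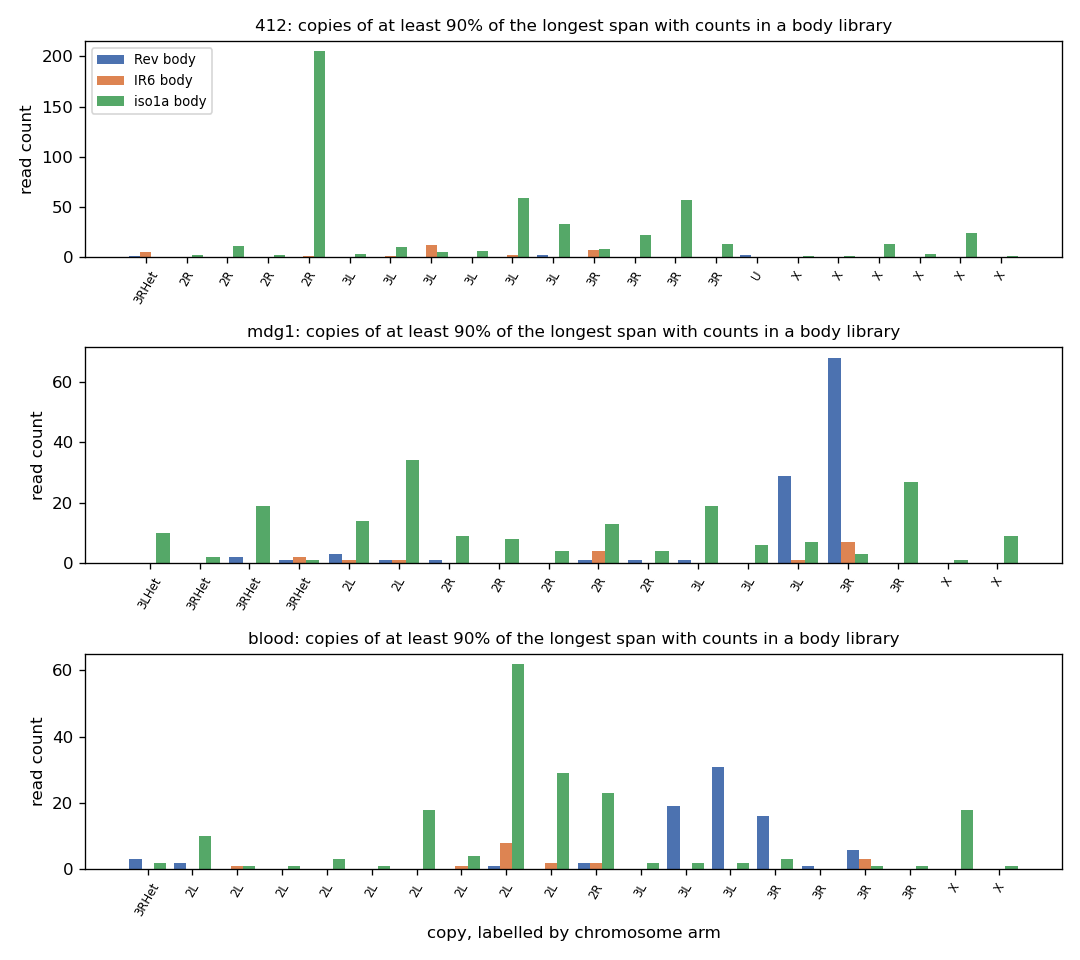
Read counts (y axis) in Rev, IR6 and the iso1a body of each copy of at least 90% span that had counts in a body library, with a panel per family and the copies labelled by chromosome arm. Most bars are near 0, and single copies stand out, such as the ‘412’ copy with 205 counts in the iso1a body and the mdg1 copy with 68 in Rev.

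The ovary libraries had few 5′ ends on these copies. Outside the stretch, the pyrosequenced library had 18 counts on 11 copies and Solexa 195 on 8 copies, 4.72% and 3.05% of TE counts there. ‘412’ had 10 counts in the pyrosequenced library, or 90.9 CPM (43.6 to 167), and 0 in Solexa, where 3 counts allow up to 1.07 CPM. The platforms also differ in normalization label, and with 10 counts the ratio is not given. Of the 10, 8 lay on 4 copies of at least 90% span and 5 on a single one, at 927440 to 935017 of X, which had 0 counts in all 3 body libraries. On copies outside the stretch, the libraries of the same line and tissue thus differed for ‘412’ beyond counting error. The ‘412’ copies inside it had 139 counts in Solexa, or 49.4 CPM (41.5 to 58.3), and 0 in the pyrosequenced library. Over all ‘412’ copies the intervals of these libraries therefore overlapped.

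mdg1 had 6 counts in the pyrosequenced library and 187 in Solexa (54.6 and 66.5 CPM). Of the Solexa counts, 108 lay on 1 copy at 1768327 to 1770898 of 3RHet, which overlaps another annotated copy, so its reads may belong to either. A fragment at 17042640 to 17042883 of X had 2 pyrosequenced counts and 27 in Solexa, but 0, 1 and 0 in the bodies. One at 5271283 to 5271670 of 2L had 2 and 20, and 4, 3 and 18 in the bodies. Both lay in the right zone and had counts in both ovary libraries. The fragment at 14034144 of 2R, the most counted of mdg1 in the iso1a body, had 1 and 7. Blood had 2 pyrosequenced counts, on a complete copy at 1220183 to 1227592 of 2L, and 8 in Solexa, all on a copy at 579642 to 580019 of chromosome 4 that overlaps another. Depth limits these values, as 1 count stood for 9.09 CPM in the pyrosequenced library.

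Reads counted on several copies would link their values. The deposited lists of read names, cut at 100 characters per copy, named 570 reads on members in Rev, 547 in IR6 and 1426 in iso1a bodies. Of these, 9 (1.58%), 11 (2.01%) and 47 (3.30%) stood under more than 1 copy, and none under copies over 200 bp apart. The cut lists name only a small part of the reads, as members outside the stretch had 11483, 9467 and 85607 counts. A read shared by well counted copies can be missing from either list. These shares therefore cannot show how many reads were counted on several copies. Copies that overlap another held 2.56%, 3.12% and 5.02% of member counts.

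Genes of the piRNA pathway, which silences these elements, were set beside them. Of 25 such genes, 1 was higher in Rev than in IR6 and 0 lower, with a median log2 ratio of 0.30 against 0.10 over all genes, of which 4.34% of 10300 were higher and 3.47% lower. The gene was armi, an RNA helicase of piRNA production, with 266 counts against 102 (log2 1.10, 0.77 to 1.45), and with median-ratio scaling it did not reach 2-fold. In the iso1a body 9 were higher than in both and 0 lower, where 35.2% of 10316 genes were higher and 19.3% lower. With TMM scaling the counts were 6 higher and 2 lower, so the number past 2-fold in each direction depends on the scaling. The 6 were zuc, a nuclease that makes piRNA ends, spn-E, qin, cuff, mino and arx. zuc had 179 counts in Rev, 129 in IR6 and 1023 in iso1a bodies. piwi, which carries piRNAs to the nucleus, had 2228, 1298 and 2020 counts, aub 710, 366 and 240, and AGO3 1533, 857 and 1111. Of those 3, piwi passed 2-fold against both lines on gene totals.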

How the data were processed

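Alignment was with Bowtie, per the submitters' processing notes, which name no version. Gene values are deposited counts of reads per transcript, and TE values are the deposited counts of reads overlapping each annotated copy, from a table whose source column names S-MART. The sources used here do not state the genome build, how reads with several matches were treated, or what the normalization label means. Sequences and host genes of copies were not analysed here.

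The value of a gene was its largest transcript count. A row without a gene name (at most 0.0155% of a library's gene counts) was left out. Copies of the 3 families were taken by element name and counts used as deposited, including 71 copies outside the stretch that overlap another. Span is relative to the longest aligned range of the family. Ratios are log2 of CPM with 0.5 counts added, with exact conditional Clopper-Pearson 95% intervals, and levels have exact Poisson intervals. A difference was called at 2-fold with at least 50 counts in the libraries compared, and against 2 libraries both ratios had to pass. A count of 0 was set to 3 counts for a bound.

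Copies named were those inside the stretch, the 3 with the most counts per family and library, the longest, and the 3 largest called ratios in each direction, in so far as the text has room, and any other is named after its values were seen. The members, lists and rules were chosen with earlier results of these data known. With 1 library per group no p-value was computed. Scaling alternatives were TMM (edgeR 4.0.16) and median-ratio factors (DESeq2 1.42.0) in R 4.3.3, and other steps used Python 3.11.15, numpy 2.4.6, pandas 2.3.3 and scipy 1.17.1, after the functions were tested on simulated counts.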

Additional observations from a re-analysis of the deposited data

How the results depend on the processing

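No family ratio past 2-fold changed direction. The sign of the mdg1 ratio of Rev to IR6, which was not past it, changed with TMM and median-ratio factors. It also changed with gene totals summed over transcripts (−0.02). Of the recomputed values, 100 moved by less than their counting interval or, for counts of copies, by at most 1.5 times, and 44 moved by more. No paired analysis was possible because each group is 1 library, so the groups share fewer than 2 replicate numbers. With TMM factors the log2 ratios of Rev to IR6 were −0.21 (‘412’) and −0.08 (mdg1), those of the iso1a body to Rev 3.35 (‘412’), 3.92 (mdg1) and 4.12 (blood), and those to IR6 3.14, 3.84 and 4.83. With median-ratio factors they were −0.24 and −0.11, then 3.42, 3.99 and 4.19, then 3.18, 3.88 and 4.88, and 9 copies were lower in Rev than IR6. With gene totals summed over transcripts the iso1a ratios to Rev and IR6 were 3.76 and 3.61 for ‘412’ and 4.33 and 4.31 for mdg1.

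With a minimum of 20 counts, 10 copies were higher and 9 lower in Rev than in IR6, and 9 lower in the iso1a body. With no minimum beyond 1 count these were 96 and 107, and for the iso1a body 376 higher and 24 lower. With the minimum set in Rev and IR6 alone, 62 were higher and 8 lower. Without overlapping copies the iso1a ratios of mdg1 were 4.36 and 4.38, and the share of counts on copies under 10% span in the iso1a body was 94.9%. With the stretch, the ratios of ‘412’ were −0.23 (Rev to IR6), 7.18 (iso1a to Rev) and 6.94 (iso1a to IR6). Without the top copy of each family, the iso1a ratios to Rev and IR6 were 3.61 and 3.48 (‘412’), 4.35 and 4.37 (mdg1) and 4.16 and 5.01 (blood), and the share under 10% span was 90.8% in Rev and 93.9% in the iso1a body. A scaling moved the median of all genes by −0.49 (TMM) and −0.42 (median-ratio) for the iso1a body against Rev. Counts of a few reads per copy, and the 109980 gene counts of the pyrosequenced ovary library, limit what single copies can show.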

Other observations

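Some counted fragments of the 3 families lie close to each other. On 2L an mdg1 fragment at 21390225 to 21390609 (413, 273 and 1320 counts in Rev, IR6 and the iso1a body) ended 194 bp before a ‘412’ fragment (91, 72 and 2491 counts). On 2R the mdg1 fragment at 14034144, with 663, 608 and 7872 counts, lay 7588 bp from the ‘412’ fragment at 14042071, with 765, 534 and 1065 counts. The first of these led mdg1 in the iso1a body, and the second led ‘412’ in Rev and IR6. On 3L a blood fragment at 17051715 (6, 5 and 76 counts) lay 5568 bp from an mdg1 fragment at 17057735 (12, 15 and 23 counts). These pairs were looked for after the values were seen.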
